A study of Saccharomyces cerevisiae with 8 samples.

Results

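The comparison set RNA recovered with tagged Pho92 from irradiated ime4 mutant cells against RNA recovered with the same tagged protein from cells that were not irradiated. It asked which sites held by Pho92 without the m6A methyltransferase need UV crosslinking to be recovered. Joining touching same-strand peaks of the 4 lists gave 81476 regions, of 32 nt at the median, against 105293 regions when all 8 lists of the series are joined. Of these, 294 regions had a normalized score above 0.9 in at least 2 of the 4 libraries and were tested. All 4 libraries came from diploid SK1 budding yeast whose IME1 gene, which encodes the transcription factor that starts meiosis, was driven by a copper-inducible promoter, and in all 4 Pho92 carried the HTP tag. The first group was Pho92-HTP in an ime4 mutant, irradiated at 254 nm for 80 s (2 libraries). The second was Pho92-HTP with IME4 intact and no irradiation (2 libraries). Cells of both groups had spent 5 h in sporulation medium when taken, the last 3 h with 50 μM copper sulfate. The other 4 libraries of the series, irradiated Pho92-HTP cells with IME4 and irradiated wild-type cells without a tag, are given as context. UV treatment and IME4 genotype differ together between the 2 groups, so the effect of either cannot be told apart from that of the other. The labels place the no-UV libraries by title and treatment, while their protocol text repeats the irradiation step.

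Pho92 is the YTH-domain protein of budding yeast, and YTH domains bind N6-methyladenosine (m6A) in RNA. Ime4 is the catalytic subunit of the complex that writes m6A on meiotic transcripts. In CRAC, UV light forms covalent bonds between a protein and the RNA it touches. The tagged protein is then purified under denaturing conditions, and the RNA still attached is sequenced. RNA found without irradiation was therefore recovered without an induced crosslink. The cultures were sequenced in bulk and RNA levels were not measured here, so more bound RNA per molecule and more RNA of that kind cannot be told apart, nor can fewer cells and less RNA per cell.

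The peak lists give contigs and positions of the SK1 genome but no gene names. The reference at hand is that of strain S288C, which has other coordinates, so genes and sequences under the peaks are not given here. Regions are named by contig, start and end as listed. Each peak carries a score. From the values, the score equals the squared height of a smoothed read density divided by the peak width, so a 4-fold change in score is a 2-fold change in height. Heights are given as read equivalents, the number of reads that would give that summit if they all lay at 1 position. For the normalized score the authors multiplied all scores of a library by a single factor, taken from a fission yeast spike-in.

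The lists without UV were short and thin. Peaks numbered 47377 and 60778 in the ime4 mutant libraries and 2925 and 2462 in the no-UV libraries. Summit heights summed to 1690660 and 2185990 read equivalents in the ime4 mutant and to 421065 and 334161 without UV. A median peak was 4.20 and 4.69 read equivalents high in the ime4 mutant and 2.00 and 2.02 without UV. Peaks above the normalized score of 0.9 numbered 334.5 ± 2.12 in the ime4 mutant and 54.5 ± 4.95 without UV (SD, n = 2 each), 6.14 times more in the mutant. For a peak of 32 nt that score stands for 153 and 201 read equivalents in the ime4 mutant libraries and 308 and 234 in the no-UV libraries. Peaks covered 1722380 ± 302048 nt in the ime4 mutant and 86590 ± 10345 nt without UV (SD, n = 2 each). Their mean normalized score was 29.9 ± 3.76 and 111 ± 0.0572 (SD, n = 2 each), and the strongest peak held 90.6% and 79.7% of the summed score of the no-UV libraries. No test was made on these totals, since 2 against 2 libraries cannot go below a two-sided exact p of 0.33.

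Nearly all strong ime4 mutant sites were higher than without UV, and 18 strong sites were not called different. Of the 294 tested regions, 269 were higher in the irradiated ime4 mutant (91.5%), 1 was lower (0.34%) and 24 did not pass (limma, with Benjamini-Hochberg adjustment over all 294 at 0.05), so that 91.8% were called in either direction. The median log2 difference over the 294 regions was 12.85 on the scale log2(normalized score + 2.22e-05), and 12.03 over the 205 higher regions with a peak in all 4 lists, where no value is a listed 0. Most regions entered the test through the ime4 mutant alone: 246 were above 0.9 in both ime4 mutant libraries and not in both no-UV libraries. Only 44 were above it in all 4 libraries, 2 in both no-UV libraries but not in both of the mutant, and the other 2 in 1 library of each group. A region that passed only through the mutant had to differ, so the number of higher calls describes the strong mutant sites and is no measure of how many sites need UV. Without the score filter 11693 of all 81476 regions were higher (14.4%) and 8 lower (0.00982%) by limma.

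On raw scores, without the spike-in factors, the result was close to this. By limma 265 regions were higher (90.1%), 2 were lower (0.68%) and 27 were not called, with a median log2 difference of 11.65. All 265 were also higher on normalized scores. The deposited factors lowered the no-UV libraries to 0.428 and 0.746 of their raw scores and moved the ime4 mutant libraries to 1.73 and 1.01 times theirs. The authors' deposited normalization table lists other factors for the no-UV libraries, 1.13 and 0.771, and gives those of the sheets to the untagged cells. Its spike-in scores are 0.391 and 0.572 without UV and 1.03 and 0.591 untagged, and larger scores go with smaller factors of the table. Its count of peaks above 0.9 in no-UV replicate 1, however, is 51, as with the sheets' factors, against 64 with its own. Which factors are right was not settled. With the table's factors 259 regions were higher and 1 lower (limma). A scaling by the trimmed mean of log ratios, which sets the typical region equal in all libraries, gave 66 higher and 44 lower regions (limma) and moved the median difference from 12.85 to 1.21. Library totals gave 255 higher and 10 lower.

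**Figure D1:**
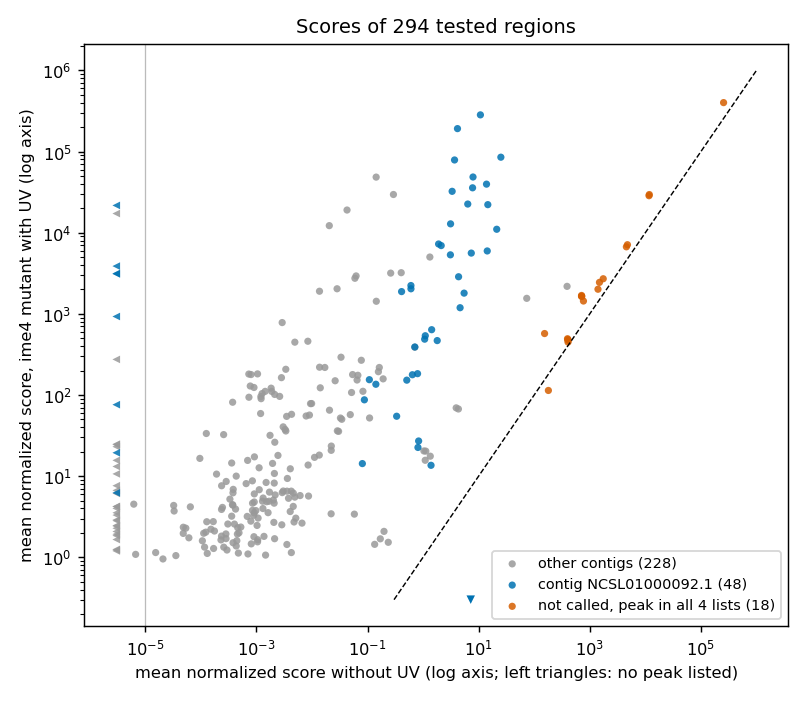
Mean normalized score of each of the 294 tested regions without UV (x axis, log) and in the irradiated ime4 mutant (y axis, log), with a dashed line of equal scores; triangles mark regions with no peak listed in either library of a group. The 18 orange regions lie near the line, while the blue regions of contig NCSL01000092.1 and most grey ones lie far above it.

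Among regions with a peak in all 4 lists, the differences ranged from -0.61 to 19.21. Of the 223 such regions, 18 were not called, with log2 differences up to 2.02, and the called ones began at 2.34. Another 12 were called higher by less than 5, 3 by 5 to 8, and 190 by 8 or more. In height, the ime4 mutant exceeded the no-UV group 1.25-fold at the median of the 18 regions (range 1.02 to 1.94) and 61.4-fold at the median of the 205 called regions with all 4 peaks (range 2.20 to 751). The 18 uncalled regions are described first. They were chosen by this test, so their scores in these 4 libraries are a description. A p above the threshold does not show that the groups were equal: the 95% intervals of the 18 differences reach from -2.28 to 4.17.

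The strongest of them was also the strongest peak of both no-UV libraries. On contig NCSL01000010.1 at 76774 to 76805 (plus strand), normalized scores were 540718 and 261954 in the ime4 mutant and 294379 and 217856 without UV. The groups overlapped, and the log2 difference was 0.57 (SE 0.62, 95% interval -1.25 to 2.39, adjusted p = 0.428, limma). The same region scored 139280 and 423189 in irradiated Pho92-HTP cells with IME4 and 265 and 109 in untagged cells. Raw scores were 312600 and 260350 in the mutant and 687540 and 291840 without UV, so on the raw scale the higher mean was without UV (log2 difference -0.65, 95% interval -2.45 to 1.15, adjusted p = 0.384, limma). This peak alone held 41.2% and 33.8% of all summit read equivalents in the no-UV libraries.

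A pair of regions ranked next and had nearly the same score in each library. NCSL01000002.1 at 149968 to 149999 on the plus strand had scores of 39748 and 19311 in the ime4 mutant and 5436 and 18148 without UV. NCSL01000001.1 at 445225 to 445256 on the plus strand had scores of 38582 and 18548 in the mutant and 5669 and 17651 without UV. In both, no-UV replicate 1 was the lowest of the 4 libraries and replicate 2 lay just under the lower mutant library. Their log2 differences were 1.48 (SE 0.86, adjusted p = 0.181, limma) and 1.42 (SE 0.83, adjusted p = 0.184, limma). Within each of the 4 libraries the scores of the pair differed by at most 1.04-fold.

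Such near-equal sets made up most of the 18. Regions were linked in steps of at most 1.1-fold in every one of the 4 libraries, among the 72 regions above 0.05 in all 4. This gave 4 sets with 11 regions, and all 11 belonged to the 18, which were all among the 72. Low read numbers make so narrow a step harder to meet at weaker regions, and how far this favoured the 18 was not tested. One set was the pair above. Another pair lay on 1 contig, NCSL01000009.1, on the minus strand. Its region at 88258 to 88289 scored 9346 and 4878 in the mutant and 4558 and 4975 without UV (log2 difference 0.50, 95% interval -1.01 to 2.02, adjusted p = 0.407, limma). The other, at 347149 to 347180, scored 8900 and 4500 in the mutant and 4476 and 4648 without UV. In both, no-UV replicate 2 lay inside the mutant's range and replicate 1 just below it.

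A set of 3 lay on NCSL01000016.1 at 119530 to 119561, NCSL01000032.1 at 103559 to 103590 and NCSL01000019.1 at 162437 to 162468, all on the minus strand. The first scored 2527 and 756 in the ime4 mutant and 688 and 748 without UV, and in all 3 ime4 mutant replicate 1 stood far above the other 3 libraries, among which the no-UV ones were slightly the lower. Their log2 differences were 0.95, 0.98 and 1.00 (adjusted p = 0.297, 0.292 and 0.253, limma). A set of 4, again all on the minus strand, lay on NCSL01000031.1 at 84015 to 84065, NCSL01000005.1 at 195067 to 195117, NCSL01000029.1 at 132359 to 132407 and NCSL01000052.1 at 60288 to 60335. The first of these scored 608 and 334 in the mutant and 395 and 427 without UV. Log2 differences of the 4 ran from 0.10 to 0.23, and the no-UV libraries lay between the mutant libraries in each. Whether the members of a set share their sequence, which would let the same reads be listed at each, was not tested.

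Other regions among the 18 had scores of their own. NCSL01000011.1 at 300989 to 301020 on the minus strand had scores of 4110 and 1303 in the mutant and 1658 and 1835 without UV. NCSL01000054.1 at 27327 to 27358 on the minus strand had scores of 3045 and 1839 in the mutant and 1836 and 1153 without UV, and NCSL01000022.1 at 138631 to 138662 (minus strand) 2542 and 1479 against 1741 and 1070. In the first both no-UV values lay inside the mutant's range, in the second both lay below it, and in the third replicate 1 lay inside it. The groups overlapped in 11 of the 18 regions, against 14 of all 294 tested. The 18 were chosen for not being called different, which favours overlap. NCSL01000001.1 at 119063 to 119099 on the plus strand had scores of 2112 and 765 in the mutant and 563 and 977 without UV.

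The remaining pair stood at the ends of the range. NCSL01000002.1 at 322678 to 322739 (plus strand) was the only one of the 18 with a negative difference, at 138 and 89.1 in the mutant and 119 and 240 without UV (log2 difference -0.61, 95% interval -2.28 to 1.06, adjusted p = 0.366, limma). On raw scores it was one of the 2 regions called lower in the mutant, at 79.9 and 88.5 against 279 and 322 (log2 difference -1.83, adjusted p = 0.0170, limma). NCSL01000041.1 at 29787 to 29818 (plus strand) had the largest difference of the 18, at 735 and 408 in the mutant against 80.7 and 227 without UV (log2 difference 2.02, 95% interval -0.14 to 4.17, adjusted p = 0.0646, limma). Its groups did not overlap, and it lies just outside the threshold. It was called higher when all regions with 4 peaks were fitted (adjusted p = 0.0262, limma) and when peaks within 50 nt were merged (adjusted p = 0.0369, limma).

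**Figure D2:**
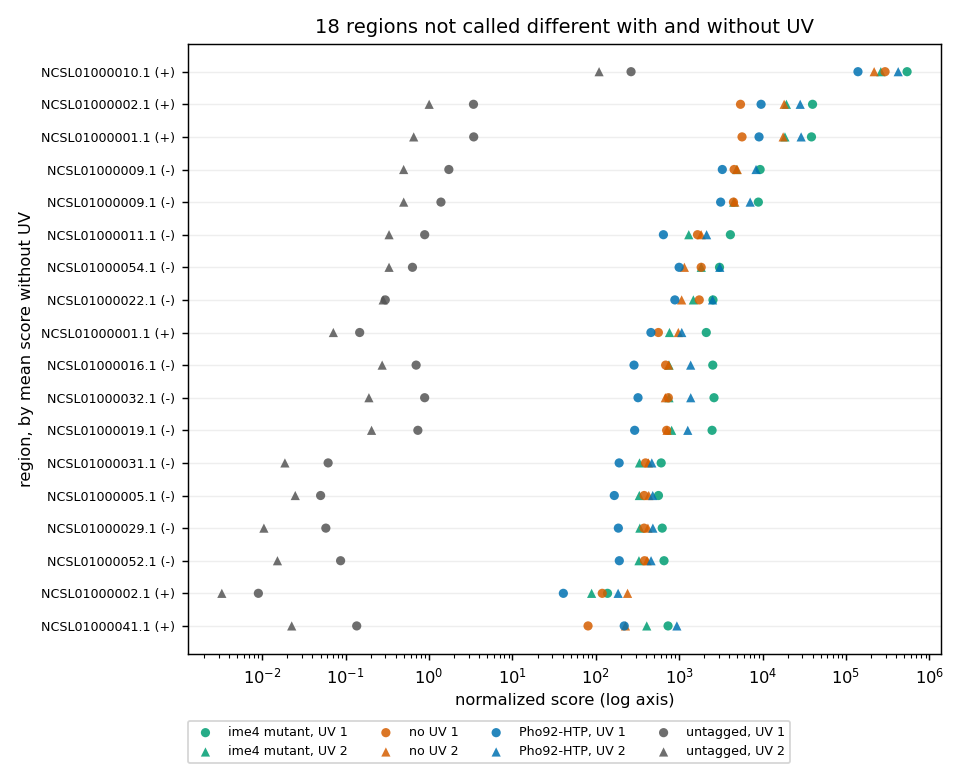
Normalized score (x axis, log) of the 18 regions not called different, 1 row per region named by contig and strand, in all 8 libraries (circles, replicate 1; triangles, replicate 2). Scores of the 6 libraries with tagged Pho92 lie together in each row, with or without UV, and the untagged libraries lie far to the left.

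The 18 regions were strong in every library with tagged Pho92 and far weaker in untagged cells. All 18 were above 0.9 in both no-UV libraries, which their choice as tested regions not called different favours. All 18 were also above 0.9 in both irradiated Pho92-HTP libraries with IME4, against 250 and 273 of all 294 tested regions. In untagged cells 5 and 2 of the 18 were above 0.9, against 29 and 16 of all 294 tested regions. Median scores of the 18 were 0.666 and 0.239 in untagged cells and 724 and 862 without UV. Tested regions outside the 18 and contig NCSL01000092.1 were weaker still in untagged cells. Their medians there were 0.000623 and 0.000227, and 2 and 0 of them were above 0.9. On contig NCSL01000092.1 the untagged medians were 0.681 and 0.209. Summed over the 18 regions and scaled to the spike-in, summit heights were 247195 ± 7913 read equivalents without UV, 325856 ± 86625 in the ime4 mutant, 264360 ± 99964 in irradiated Pho92-HTP and 4967 ± 1732 in untagged cells (SD, n = 2 each). The 3 tagged groups differed by less than the spread between replicates of the irradiated groups. The small spread without UV depends on the factors used. With those of the authors' deposited table the no-UV sums were 391921 and 256834, in place of 241600 and 252790. The 18 regions held 87.7% and 87.6% of all summit read equivalents without UV and 17.4% and 12.1% in the ime4 mutant. They lay on 15 contigs, 12 on the minus strand and 6 on the plus strand.

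Replicates of the ime4 mutant were not alike at these regions. All 18 had a higher normalized score in ime4 mutant replicate 1 than in replicate 2, by a median log2 difference of 0.99. Replicate 1 was also the higher in 157 of all 223 regions with 4 peaks, where the median was 0.52. The direction was thus not particular to the 18, though on contig NCSL01000092.1 replicate 1 was the higher in only 7 of 32. The normalization factors of mutant replicates 1 and 2 were 1.73 and 1.01. The direction of the group difference also followed the factors: 10 of the 18 differences turned negative with those of the authors' deposited table, and on raw scores their median was -0.68. By limma 9 of the 18 were called lower with library totals and all 18 with the trimmed mean. Without ime4 mutant replicate 2, 6 of the 18 were called higher in the mutant, with log2 differences from 0.96 to 1.88. Without ime4 mutant replicate 1 none of the 18 was called and 6 differences turned negative. Without no-UV replicate 2 only the region on NCSL01000041.1 was called, at a log2 difference of 2.76.

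Peak shape at the 18 regions was uniform without UV. In 17 of the 18 the strongest peak was 31 nt wide in no-UV replicate 1, and in 17 in replicate 2. Over all tested regions with a peak there, 39 of 247 and 36 of 238 were. In the ime4 mutant 12 of the 18 were at most 31 nt wide in each library. Over all tested regions with a mutant peak, 92 of 291 and 87 of 292 were. The mean summit moved by at most 1 nt between the groups in 12 of the 18, against 51 of 257 tested regions with a summit in both groups. At the strongest region the summit was listed at 76789 in all 4 libraries.

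The set of 4 near-equal regions differed in shape. On NCSL01000031.1 the peak was 31 nt wide in both no-UV libraries and 46 and 38 nt wide in the ime4 mutant, and its summit lay at 84031 without UV and at 84042 and 84036 in the mutant. On NCSL01000005.1 widths were 31 and 31 nt without UV and 47 and 38 nt in the mutant. The region on NCSL01000002.1 at 322678 to 322739 was 35 and 34 nt wide without UV and 56 nt wide in both mutant libraries, with summits at 322722 in both no-UV libraries and at 322708 and 322706 in the mutant. At these regions the listed summit moved between the groups. No test was made on widths, since regions are not replicates.

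**Figure D3:**
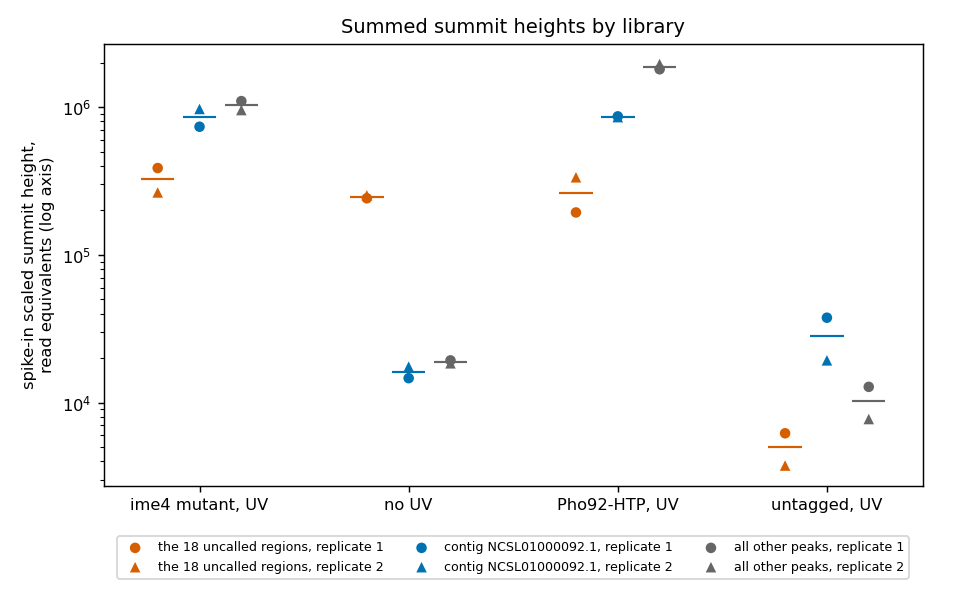
Summit heights summed per library and scaled to the spike-in, in read equivalents (y axis, log), for the 18 uncalled regions, contig NCSL01000092.1 and all other peaks; points are libraries and lines are means of 2. Without UV the 18 regions, set apart because the test did not call them, lie near the level of the irradiated tagged groups. Contig NCSL01000092.1 and all other peaks lie 53.2-fold and 54.5-fold below the ime4 mutant there.

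Outside the 18 regions, summed heights were far lower without UV than in the ime4 mutant. The 18 were set apart by not being called between these 4 libraries, so their contrast with the rest follows from that choice. IME4 genotype differs between the groups as well as UV. Scaled summit heights on contig NCSL01000092.1 summed to 854716 ± 166245 read equivalents in the ime4 mutant and 16058 ± 2025 without UV (SD, n = 2 each), a ratio of 53.2. All remaining peaks summed to 1027560 ± 101424 in the mutant and 18865 ± 608 without UV (SD, n = 2 each), a ratio of 54.5. With the factors of the authors' deposited table the ratios were 41.2 and 41.1, and 1.00 for the 18 regions against 1.32. Both mutant libraries exceeded both no-UV libraries by far more than the spread between replicates. These sums move with how much was listed, and the lists of the mutant covered 19.9 times more sequence.

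Contig NCSL01000092.1 held 48 of the 294 tested regions, all on the plus strand between 1242 and 5504. Of these 42 were higher in the ime4 mutant, 1 was lower and 5 were not called (limma), against 91.5% higher over all tested regions. Its strongest region, at 4013 to 4045, scored 148071 and 418804 in the mutant and 7.74 and 13.8 without UV (difference 14.56 on the log2 scale, standard error 0.74, limma adjusted p = 0.000257), a 159-fold difference in height. This call was lost without the score filter (adjusted p = 0.0778, limma) and with the trimmed mean (2.83, adjusted p = 0.0885, limma). At 4456 to 4504 the scores were 132168 and 251550 in the mutant against 0.855 and 7.46 without UV, a 230-fold difference in height. At 1935 to 1966 they were 90230 and 80266 against 31.7 and 18.5, and 31.7 was the highest score of a tested region of the contig in no-UV replicate 1. That call too was lost without the score filter (adjusted p = 0.129, limma) and with the trimmed mean (0.052, adjusted p = 0.929, limma), as was that at 4456 to 4504 with the trimmed mean (4.41, adjusted p = 0.0862, limma). Every mutant value was far above every no-UV value in these regions.

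Both kinds of control were low on this contig. Over the 48 regions the median normalized score was 0.717 and 1.64 without UV and 0.681 and 0.209 in untagged cells, against 1768 and 2082 in the ime4 mutant. Replicate 2 was thus higher without UV than in untagged cells, and with the factors of the authors' deposited table, chosen after seeing the data, the medians were 1.89 and 1.69 without UV and 0.259 and 0.203 in untagged cells. In 2 of the strongest regions the untagged cells stood far above the no-UV libraries. They scored 4409 and 1183 at 4456 to 4504, and at 4527 to 4558 they scored 606 and 186 against 1.48 and 5.88 without UV. The contig held 5.31% and 6.06% of summit read equivalents without UV, 33.2% and 44.3% in the ime4 mutant and 66.4% and 62.7% in untagged cells.

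**Figure D4:**
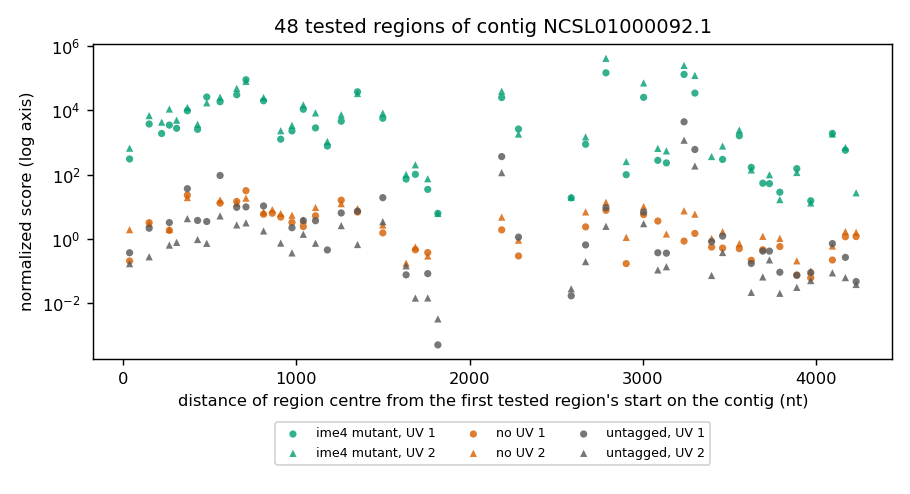
Normalized scores (y axis, log) of the 48 tested regions of contig NCSL01000092.1 by distance of the region's centre from the start of the first tested region (x axis, nt), in the ime4 mutant, no-UV and untagged libraries; libraries with no listed peak are not drawn. The ime4 mutant lies above the no-UV libraries along the contig wherever both list a peak, and untagged cells exceed the no-UV libraries by far at a few regions, such as 4456 to 4504 (4409 and 1183).

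The single lower call lay on the same contig, at 2089 to 2116. No peak was listed there in either mutant library, and the no-UV libraries scored 6.29 and 8.12 (adjusted p = 4.4e-05, limma). Mutant peaks within 50 nt, however, summed to scores of 21175 and 27539. When peaks within 50 nt were merged, the joined region was higher in the mutant, by 10.66, and no region was called lower. Of the 5 uncalled regions of the contig, each lacked a listed peak in 1 library, among them 4610 to 4668 with 0 and 366 in the mutant and 0.555 and 1.03 without UV. Where 1 library of a pair is listed at 0, the fitted difference rests on the listing. In all, 6 no-UV peaks above 0.9 touched no ime4 mutant peak, all on this contig and strand, and 2 of them make up the lower region. They were 2517 to 2547 (10.1) and 2089 to 2116 (6.29) in replicate 1, and 2090 to 2115 (8.12), 2750 to 2787 (2.70), 2656 to 2679 (1.88) and 1242 to 1271 (0.938) in replicate 2. Each had mutant peaks within 50 nt that summed to a score of at least 308.

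On other contigs, single strong sites were far weaker without UV. The largest differences among called regions with a peak in all 4 libraries were all on other contigs. NCSL01000005.1 at 86939 to 86973 on the minus strand had scores of 17441 and 6995 in the ime4 mutant and 0.0299 and 0.0111 without UV (difference 19.21 on the log2 scale, standard error 0.82, limma adjusted p = 0.000210), a 751-fold difference in height. NCSL01000016.1 at 51412 to 51450 on the minus strand had scores of 27624 and 10443 against 0.0621 and 0.0234, 642-fold in height. NCSL01000008.1 at 152984 to 153022 (plus strand) was the strongest of them, at 70323 and 26578 in the mutant against 0.234 and 0.0520 without UV (difference 18.58 on the log2 scale, standard error 1.04, limma adjusted p = 0.000318). Its summits were 42886 and 34569 read equivalents in the mutant and 160 and 59.5 without UV. All 3 were listed in both no-UV libraries at a level far under every mutant value.

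The other 3 largest differences belonged to weaker sites. NCSL01000032.1 at 120173 to 120206 on the minus strand had scores of 47.2 and 19.8 in the mutant and 0.000234 and 1.7e-05 without UV. NCSL01000024.1 at 61594 to 61634 on the minus strand had scores of 132 and 30.2 against 0.000695 and 5.1e-05, and NCSL01000048.1 at 40881 to 40922 (minus strand) 1175 and 386 against 0.00431 and 0.00150. The no-UV peak of replicate 2 was 1.00 read equivalents high at the first of these and 1.82 at the second. The size of those differences thus rests on very few reads. With the trimmed mean the call at the second was lost (6.62, adjusted p = 0.0519, limma).

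No peak was listed in either no-UV library for 36 of the 269 higher regions, and in 1 of them for 28. For 26 of the 36 a no-UV peak lay within 50 nt. The strongest of the 36 was on NCSL01000092.1 at 1709 to 1739, with 26157 and 17225 in the ime4 mutant, and no-UV peaks within 50 nt scored 12.9 and 16.3. On the same contig, regions at 1540 to 1560 (2775 and 4976) and at 1658 to 1684 (2575 and 3706) were also without a no-UV peak of their own. No-UV peaks within 50 nt scored 24.9 and 21.2 at the first and 23.0 and 19.3 at the second. NCSL01000008.1 at 1260 to 1291 on the minus strand had scores of 25426 and 9036 in the mutant and was listed at 0 without UV, where neighbours within 50 nt scored 0.370 and 0.278. No fold is given for these regions, since the files hold no value to set the mutant against.

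Between the 2 kinds of site lay 12 regions, called higher in the ime4 mutant by less than 5 on the log2 scale. Of these 10 were on the minus strand, against 136 of all 294 tested regions. NCSL01000010.1 at 48853 to 48891 (minus strand) was the nearest to the uncalled set, at 3113 and 1249 in the mutant and 415 and 365 without UV (difference 2.34 on the log2 scale, standard error 0.61, limma adjusted p = 0.0263), and it lay just inside the threshold. NCSL01000016.1 at 111284 to 111318 on the plus strand had scores of 2482 and 623 in the mutant and 91.9 and 54.9 without UV (difference 4.13 on the log2 scale, standard error 0.88, limma adjusted p = 0.0140). In both regions the groups did not overlap. In untagged cells the first scored 0.0232 and 0.0320 and the second 0.0681 and 0.00725.

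Several of the weaker of the 12 had like scores. NCSL01000009.1 at 300828 to 300880 and NCSL01000031.1 at 48179 to 48231, both on the minus strand, scored 107 and 31.7 and 107 and 27.6 in the mutant, and 2.64 and 5.25 and 2.60 and 6.05 without UV. Another 4, all of 31 or 32 nt on the minus strand, had mutant scores from 8.87 to 31.8 and no-UV scores from 0.606 to 1.74. NCSL01000019.1 at 23303 to 23333 on the minus strand had scores of 1.76 and 1.30 in the mutant against 0.343 and 0.129 without UV (difference 2.84 on the log2 scale, standard error 0.73, limma adjusted p = 0.0245). On raw scores 8 of the 12 were called higher and 4 were not, among them the regions on NCSL01000010.1 (adjusted p = 0.138, limma) and NCSL01000019.1 (adjusted p = 0.192, limma). The call on NCSL01000010.1 was also lost without no-UV replicate 1 (adjusted p = 0.0761, limma) and without no-UV replicate 2 (adjusted p = 0.107, limma), with log2 differences of 2.43 and 2.25. With the factors of the authors' deposited table both it (1.62, adjusted p = 0.161, limma) and the region on NCSL01000019.1 (2.12, adjusted p = 0.177, limma) lost the call. The latter also lost it without ime4 mutant replicate 1 (2.63, adjusted p = 0.159, limma) and without replicate 2 (3.06, adjusted p = 0.123, limma).

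Of the 5 calls closest to the threshold, 2 rested on a single no-UV listing and 3 had a peak in all 4 lists. On NCSL01000092.1, 2856 to 2894 scored 72.8 and 101 in the mutant and had 1 no-UV peak of 0.175 (adjusted p = 0.0453, limma), and 4848 to 4888 scored 169 and 140 with 1 no-UV peak of 0.216 (adjusted p = 0.0427, limma). NCSL01000032.1 at 51350 to 51450 on the plus strand had scores of 4.90 and 1.96 in the mutant and 0.000637 and 0.0436 without UV (difference 9.17 on the log2 scale, standard error 2.39, limma adjusted p = 0.0258). The calls at 2856, 4848 and 51350 were lost without either ime4 mutant replicate.

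By contig, tested regions lay on 61 contigs, of which 22 held 5 or more. After NCSL01000092.1 with 48, most lay on NCSL01000002.1 with 17, on NCSL01000006.1 and NCSL01000020.1 with 12 each, and on NCSL01000001.1 with 11. Over all tested regions 91.5% were called higher. All 12 were called higher on both NCSL01000006.1 and NCSL01000020.1. On NCSL01000002.1 15 of 17 and on NCSL01000001.1 9 of 11 were higher, and the uncalled ones belong to the 18 regions described above.

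Away from the 18 regions and contig NCSL01000092.1, no-UV libraries more often listed a peak at stronger mutant sites, with little change in the 3 highest ranges. Regions recovered alike were left out here by the choice of the 18, so the low no-UV scores of the rest are a description. Regions were placed by the lower of their 2 ime4 mutant scores. Of 23606 regions with a score of at most 0.009, 5.72% had a peak in at least 1 no-UV library (95% Wilson interval 5.43% to 6.02%). The share was 24.4% of 1971 regions from 0.009 to 0.09, 55.6% of 473 from 0.09 to 0.9, and 84.3% of 134 from 0.9 to 9. It was 91.5% of 59 regions from 9 to 90 and 95.2% of 21 from 90 to 900, and 13 of 14 regions above 900 had one. The intervals treat each region as independent, and variation among libraries is not in them. Among regions with a peak in both no-UV libraries the median no-UV score rose over the same ranges from 8.80e-05 to 0.143. No region with a mutant score of at most 9 was above 0.9 in both no-UV libraries, and 6 regions above that were.

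**Figure D5:**
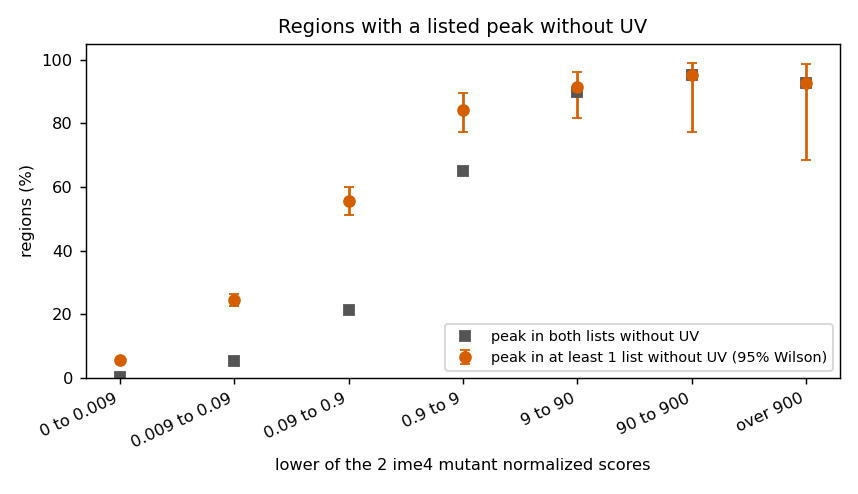
Share of regions (y axis, %) with a listed peak in at least 1 no-UV library (circles, 95% Wilson intervals) or in both (squares), by the lower of the 2 ime4 mutant normalized scores (x axis), without contig NCSL01000092.1 and the 18 uncalled regions. The share in at least 1 library goes from 5.72% in the lowest range to above 90% in the 3 highest.

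Seen from the lists, most strong no-UV peaks overlapped a strong mutant peak, while a minority of strong mutant peaks overlapped a strong no-UV peak. Of the 336 and 333 peaks above 0.9 in the ime4 mutant libraries, 14.6% to 16.5% overlapped a no-UV peak above 0.9 over the 4 pairs of libraries, and 73.8% to 78.7% overlapped a no-UV peak of any score. Of the 51 and 58 such peaks in the no-UV libraries, 89.7% to 96.1% overlapped an ime4 mutant peak, in every case one above 0.9. Within groups, 87.5% and 88.0% of the strong mutant peaks and 92.2% and 79.3% of the strong no-UV peaks overlapped a strong peak of the other replicate. The lists differ in length, so each share describes its own list.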

How the data were processed

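CRAC libraries of 75 nt reads were sequenced from bulk cultures, 2 biological replicates per group; Bowtie2 2.4.1 and cutadapt are listed as tools, and ASM294v2 (fission yeast) as a build, per the submitters' processing notes. The peak caller and the SK1 build are not given in the sources used here. The authors deposited a peak list per library with a score and a normalized score, and, per the file headers, a table of read and peak counts and of the spike-in factor, a ratio. From the values, the score is squared height over width with Gaussian smoothing of SD 15 nt: 69.7% to 92.4% of the 32 nt peaks of the 4 libraries came within 0.01 of a whole read.

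Scores of touching same-strand peaks were summed per library, with 0 where no peak was listed, and regions above 0.9 in at least 2 of 4 libraries were tested. limma 3.58.1 (R 4.3.3) was fitted with a mean-variance trend to log2(score + pseudocount), the pseudocount being the percentile 5 of the listed scores (2.22e-05 normalized, 2.21e-05 raw), with Benjamini-Hochberg adjustment at 0.05. Figures were drawn with matplotlib 3.10.9 and tables made with pandas 2.3.3, both in Python 3.11.15 (scipy 1.17.1, numpy 2.4.6). The fit was tested on simulated data. The table and the lists disagree on the no-UV factors, and the table counts 2138 peaks where the list of no-UV replicate 2 holds 2462; the lists were used.

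Named regions were the 10 strongest without UV, the 8 strongest in the ime4 mutant, the 6 largest differences with 4 peaks, the 4 strongest without a no-UV peak, lower calls and the 5 calls nearest the threshold; all others, such as the rest of the 18 and the 12 intermediate regions, were named after their values were seen. Members, lists and rules were chosen with earlier results of these data known. Alternatives were other factors and scalings, filters, pseudocounts, merging, peak thresholds, overlaps, summit height, a replicate block and leaving out each library. Intervals of shares cover counting error only.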

Additional observations from a re-analysis of the deposited data

How the results depend on the processing

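The direction of the difference held in most alternatives and its size did not. The cause of each change below was not tested unless the alternative itself holds it. Higher and lower regions are limma calls at an adjusted p of 0.05. With no score filter 11693 regions were higher and 8 lower, with a median log2 difference of 2.65 (raw scores 8325 and 8). Keeping all regions with a peak in all 4 libraries gave 468 higher and 0 lower, median 9.81 (raw 441 higher). Merging peaks within 50 nt gave 0 lower, median 12.31 (raw 1 lower), and turned NCSL01000092.1 at 2089 to 2116 into a region higher by 10.66. Without contig NCSL01000092.1, an alternative chosen after seeing the data, 0 were lower. Library totals gave 10 lower, median 10.45, and the trimmed mean 66 higher and 44 lower, median 1.21. Summit height gave a median of 6.28 and 1 lower region on raw values. The median was 12.15 with the table's factors, 11.52 with the pseudocount at percentile 50 and 3.19 with a pseudocount of 0.9. Leaving out each library gave 219 to 272 higher and 2 to 4 lower regions, medians 12.30 to 13.03, and on raw scores 202 to 271 higher and 2 to 4 lower.

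With the table's factors, differences turned negative at NCSL01000005.1 at 195067 (-0.62), NCSL01000009.1 at 347149 (-0.25) and 88258 (-0.22), NCSL01000010.1 at 76774 (-0.15), NCSL01000011.1 (-0.31), NCSL01000022.1 (-0.21), NCSL01000029.1 (-0.52), NCSL01000031.1 at 84015 (-0.59), NCSL01000052.1 (-0.49) and NCSL01000054.1 (-0.019). With library totals and with the trimmed mean, in this order, they were negative at NCSL01000001.1 at 119063 (-1.64 and -10.95) and 445225 (-1.0 and -10.31), NCSL01000002.1 at 149968 (-0.94 and -10.25), NCSL01000005.1 at 195067 (-2.33 and -11.63), NCSL01000009.1 at 347149 (-1.95 and -11.25) and 88258 (-1.92 and -11.22), NCSL01000010.1 at 48853 (-0.082 and -9.39) and 76774 (-1.85 and -11.15), and NCSL01000011.1 (-2.01 and -11.32). The same held for NCSL01000016.1 at 119530 (-1.48 and -10.78), NCSL01000019.1 at 162437 (-1.43 and -10.73), NCSL01000022.1 at 138631 (-1.92 and -11.22), NCSL01000029.1 (-2.22 and -11.53), NCSL01000031.1 at 84015 (-2.29 and -11.59), NCSL01000032.1 at 103559 (-1.44 and -10.74), NCSL01000041.1 (-0.40 and -9.71), NCSL01000052.1 (-2.20 and -11.50) and NCSL01000054.1 at 27327 (-1.72 and -11.02). With the trimmed mean alone, NCSL01000019.1 at 23303 (-8.88), NCSL01000032.1 at 51350 (-2.53) and NCSL01000092.1 at 1881 (-0.28) were negative too. By summit height NCSL01000002.1 at 322678 became positive (0.044). Without ime4 mutant replicate 1, 6 of the 18 regions turned negative. With each library left out, their differences ran from -0.28 to 0.48 (NCSL01000005.1), -0.019 to 0.96 (NCSL01000009.1 at 347149), -0.42 to 1.24 (NCSL01000011.1), -0.25 to 0.65 (NCSL01000029.1), -0.30 to 0.57 (NCSL01000031.1) and -0.27 to 0.73 (NCSL01000052.1).

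At a threshold of 0.09, 1238 and 1089 ime4 mutant peaks and 85 peaks of no-UV replicate 1 passed, and at 3.6, 216 of ime4 mutant replicate 2 and 33 of no-UV replicate 1. The share of strong mutant peaks overlapping a no-UV peak, in the order of mutant replicate 1 with each no-UV replicate and then mutant replicate 2, was 69.0%, 63.4%, 71.2% and 63.4% when the overlap had to cover 50% of the shorter peak. It was 89.6%, 89.6%, 90.7% and 90.7% within 50 nt, and 84.2%, 83.3%, 85.2% and 84.3% for peaks above 3.6. Strong no-UV peaks had a mutant peak within 50 nt in 100% of cases for all 4 pairs, and those of replicate 2 above 3.6 overlapped one in 97.5% with either mutant library. A replicate block gave 270 higher and 1 lower region, and 268 and 2 on raw scores. The replicate numbers are not known to pair the samples. Deviations of same-numbered samples correlated at 0.08 over 223 regions, which cannot decide this, since regions are not replicates. Median no-UV peaks were 2.00 and 2.02 read equivalents high, and 64.4% and 63.1% were under 3, so many listed no-UV values rest on single reads.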
